A study of Mus musculus with 2 samples.

Results

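The dual-specificity MAP kinase phosphatases are the enzymes that switch off the MAP kinases ERK, p38 and JNK. Their genes were followed here on the chromatin of lipid A-stimulated mouse macrophages. The 10 genes Dusp1, Dusp2, Dusp4, Dusp5, Dusp6, Dusp7, Dusp8, Dusp10, Dusp14 and Dusp16 were taken by name, out of 55536 annotated genes in the tables, and all 10 matched by symbol. The series has a single group of 2 libraries, labelled biological replicates 1 and 2. Both are total RNA, depleted of ribosomal RNA, from the chromatin fraction of bone marrow-derived macrophages of strain C57BL/6J, given 100 ng/ml lipid A for 75 min. Lipid A is the part of bacterial lipopolysaccharide that engages Toll-like receptor 4, and RNA held on chromatin is rich in transcripts that are still being made or spliced. Age and sex were not collected, the genotype beyond the strain is not given, and both libraries carry the same donor label. The sources used here do not say if the cultures came from separate animals, and an SD may then describe cultures rather than mice. No unstimulated cells and no other time were analysed here, so the values are levels after stimulation, and no induction was measured.

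A MAP kinase is active while both a threonine and a tyrosine of its activation loop are phosphorylated, and a dual-specificity phosphatase removes both phosphates. In macrophages the receptor for lipid A activates all 3 kinase branches within minutes, and several of the phosphatase genes are textbook immediate targets of the same kinases, which closes a negative feedback loop. The family is usually sorted by where the enzyme sits and what it acts on. Dusp1, Dusp2, Dusp4 and Dusp5 encode nuclear and inducible enzymes, Dusp6 and Dusp7 cytoplasmic enzymes for ERK, and Dusp8, Dusp10 and Dusp16 enzymes that prefer JNK and p38. Dusp14 encodes a small atypical member without the amino-terminal kinase-binding domain of the others.

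The nuclear inducible genes made up most of the family's chromatin RNA, with Dusp1 first and Dusp2 second in both libraries. Levels are in TPM, a relative measure that scales reads by transcript length and by the table's total. It sets levels of different genes side by side, but a gene's TPM sums only its annotated transcripts. Only 3 of the 10 genes have a transcript annotated as retained intron, so the genes were not counted on like sets of transcripts. The 10 genes summed to 216.51 TPM in replicate 1 and 537.97 TPM in replicate 2. The nuclear inducible class held 93.9% and 93.4% of those sums, the JNK and p38 class 4.20% and 4.69%, the cytoplasmic ERK class 1.67% and 1.54%, and Dusp14 0.268% and 0.346%. The class shares were thus close in both libraries, although the sums differed. Inside the nuclear inducible class the share of Dusp5 was 5.90% and 3.95% and that of Dusp4 3.80% and 1.86%. The shares of Dusp1 and Dusp2 were higher in replicate 2. The class shares depended on the quantification. In a second one, which the authors derived straight from the reads rather than from an alignment, the nuclear inducible class held 84.1% and 82.3%. The JNK and p38 class held 7.82% and 9.11% there, the cytoplasmic ERK class 7.65% and 7.96%, and Dusp14 0.471% and 0.589%. Of the 10 genes, 7 reached 1 TPM in both libraries, and the exceptions were Dusp14, Dusp10 and Dusp6. Among all 22028 protein-coding genes the share was 34.7%, or 7633 genes.

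Dusp1 encodes the phosphatase best known for restraining p38 and JNK, and with them cytokine output, in stimulated macrophages. It was at 125.82 TPM in replicate 1 and 321.95 TPM in replicate 2, a mean of 224 ± 139 TPM (SD, n = 2). These were 21.6 and 30.9 times the median expressed protein-coding gene of the same library, and the percentiles among expressed protein-coding genes were 97.7 and 98.8. Dusp1 alone supplied 58.1% and 59.8% of the family's TPM. The expected counts were 5237 and 13929. The annotated gene (ENSMUSG00000024190.7) spans chr17:26505590-26562128 on the minus strand of mm10, and its main coding transcript, Dusp1-202, covers only chr17:26505590-26508519. Transcripts that begin at the far upstream first exons were at 0 TPM in both libraries, and at 0.589 and 1.74 TPM in the second quantification. The level of Dusp1 therefore came from the compact downstream unit.

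Dusp2 encodes a nuclear phosphatase found mainly in blood and immune cells, and its gene (ENSMUSG00000027368.6) lies at chr2:127336159-127338376 on the plus strand. It was at 56.41 TPM in replicate 1 and 149.42 TPM in replicate 2, a mean of 103 ± 65.8 TPM (SD, n = 2). These were 9.69 and 14.3 times the median expressed protein-coding gene. Dusp1 and Dusp2 together held 84.2% and 87.6% of the family's TPM. In each library Dusp1 stood above Dusp2, by 2.23-fold and 2.15-fold. In TPM as deposited the values of the genes overlapped across libraries, since Dusp1 in replicate 1 was below Dusp2 in replicate 2. The libraries differ in scale, however. With TPM over protein-coding genes only, Dusp1 was at 899 and 1289 and Dusp2 at 403 and 598, with no overlap.

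The other nuclear genes were nearer to the ordinary expressed gene. Dusp5, whose enzyme acts on ERK and not on the other branches, was at 12.77 and 21.26 TPM (17.0 ± 6.00 TPM, SD, n = 2), at chr19:53529109-53542431. Dusp4, which encodes a close relative of the Dusp1 enzyme, was at 8.22 and 9.98 TPM (9.10 ± 1.24 TPM), at chr8:34807297-34819894. Dusp5 was 2.19 and 2.04 times the median expressed protein-coding gene, and Dusp4 was 1.41 and 0.958 times. By gene TPM, Dusp2 exceeded Dusp5 by 4.42-fold and 7.03-fold, with no overlap of their values. A wide step in gene TPM thus separated Dusp1 and Dusp2 from the rest of the family. Most TPM of Dusp1 and Dusp2 lay on retained-intron transcripts, a type that Dusp4 and Dusp5 do not have. The coding transcript Dusp1-202, at 6.87 and 13.52 TPM, was below Dusp5-201, at 12.77 and 21.26 TPM. Dusp2-201, at 23.01 and 59.68 TPM, was above Dusp5-201 in both libraries. Of the exon bases of Dusp5, 547 are shared with the antisense gene AC137853.2, which was at 0.21 and 0.15 TPM. The sources used here do not say if reads were assigned by strand, so the genes may share reads.

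Both genes for cytoplasmic ERK phosphatases were low in the first quantification, and Dusp7 was higher in the second. Dusp6 encodes the ERK phosphatase that is the usual feedback target of growth factor signalling, and it was the lowest of the 10 by its mean. It had 6 counts in replicate 1, with an exact Poisson 95% interval of 2.20 to 13.1, and 23 counts in replicate 2, with an interval of 14.6 to 34.5. Those counts gave 0.08 and 0.39 TPM. Dusp7 encodes a close relative with the same substrate preference and was at 3.53 and 7.89 TPM (5.71 ± 3.08 TPM, SD, n = 2), below the median expressed protein-coding gene at 0.607 and 0.757 times. In the second quantification Dusp7 was at 17.8 and 46.0 TPM. Dusp7 exceeded Dusp6 in each library, and neither value of Dusp6 reached 1 TPM.

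Among the genes for JNK and p38 phosphatases, Dusp16 led. It encodes a JNK-preferring enzyme that shuttles between nucleus and cytoplasm, spans chr6:134715468-134792625 on the minus strand, and was at 7.82 and 23.23 TPM (15.5 ± 10.9 TPM, SD, n = 2). Dusp8 was at 1.07 and 1.41 TPM (1.24 ± 0.240 TPM), barely above the threshold. Dusp10, which encodes a phosphatase of JNK and p38 studied in innate immunity, had 16 and 47 counts and was at 0.21 and 0.58 TPM, below the threshold in both libraries. The atypical gene Dusp14 had 17 and 70 counts and was at 0.58 and 1.86 TPM, so it crossed the threshold in replicate 2 only.

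**Figure D1:**
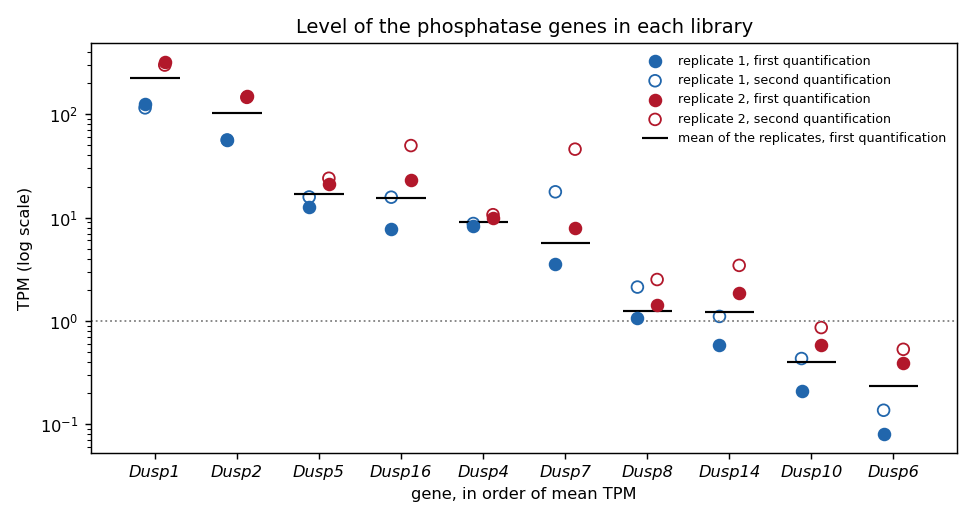
Level of each of the 10 phosphatase genes in TPM on a log axis, in order of the mean: filled points are the first quantification, open points the second, blue is replicate 1, red is replicate 2, the bar is the mean of the replicates in the first quantification and the dotted line marks 1 TPM. Dusp1 and Dusp2 stand above the rest in both libraries, and the open points of Dusp7 and Dusp16 lie well above the filled ones.

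Several neighbours in the order of levels could not be separated with 2 libraries. Dusp5 was above Dusp16 by 1.63-fold in replicate 1 and at 0.915 of it in replicate 2. Dusp16 and Dusp4 also changed places, with Dusp16 at 0.951 of Dusp4 in replicate 1 and at 2.33 times Dusp4 in replicate 2. Dusp8 and Dusp14 did the same, with ratios of 1.84 and 0.758. Dusp14 stood above Dusp10, and Dusp10 above Dusp6, in both libraries, but their values overlapped across libraries. Steps with no overlap were Dusp2 over Dusp5, Dusp4 over Dusp7 (2.33-fold and 1.26-fold) and Dusp7 over Dusp8 (3.30-fold and 5.60-fold). The step between Dusp4 and Dusp7 turned round in the second quantification, where Dusp7 was above Dusp4, and above Dusp5, in both libraries. In the first quantification the order thus had a high pair, a middle set of Dusp5, Dusp16, Dusp4 and Dusp7, and a low set of Dusp8, Dusp14, Dusp10 and Dusp6.

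Most of the Dusp1 RNA was assigned to transcripts that keep an intron. Dusp1-203, of 2313 bases, keeps the whole of intron 2 and was at 63.63 TPM in replicate 1 and 154.16 TPM in replicate 2, or 50.6% and 47.9% of the gene. Dusp1-204, of 839 bases, keeps the whole of intron 3 with intron 2 removed and was at 55.32 and 153.58 TPM, or 44.0% and 47.7%. The fully spliced coding transcript Dusp1-202, of 1990 bases, was at 6.87 and 13.52 TPM, or 5.46% and 4.20%. The share on transcripts annotated as retained intron was therefore 94.5% and 95.6%, a mean of 95.1% ± 0.742 (SD, n = 2). That was the percentile 99.5 among 5233 expressed protein-coding genes that have such a transcript, whose median share was 45.9% with quartiles of 29.4% and 62.5%. No transcript in the annotation is a whole unspliced copy of Dusp1, and none keeps the whole of intron 1, so RNA with several introns present has no transcript of its own to be counted on.

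In Dusp2 the retained-intron transcript Dusp2-202, of 756 bases, was at 33.41 and 89.74 TPM, and the coding transcript Dusp2-201, of 1617 bases, at 23.01 and 59.68 TPM. Dusp2-202 keeps the whole of intron 2 and ends 36 bases into intron 3. Its share was 59.2% and 60.1% (mean 59.6% ± 0.596, SD, n = 2), the percentile 70.8 among the same 5233 genes. As a share of expected counts, which do not correct for the short length of Dusp2-202, it was 35.6%. For Dusp1 the share of expected counts was 93.8%, so the large share there did not rest on the length scaling. The shares of the 2 libraries differed by about 1 percentage point in both genes, although their TPM differed more than 2-fold.

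The exon and intron ends that these transcripts read through are printed here because they are the sequences by which a retained copy differs from a spliced one. Each donor line has the last 15 exon bases and the first 25 intron bases, each acceptor line the last 35 intron bases and the first 15 exon bases, and the capitals mark the GT and AG at the intron's ends. Positions are on mm10 and sequences are written 5′ to 3′ on the strand of the gene.
Dusp1 intron 2 donor, chr17:26507549-26507588, minus strand: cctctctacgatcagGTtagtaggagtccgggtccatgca
Dusp1 intron 2 acceptor, chr17:26507190-26507239, minus strand: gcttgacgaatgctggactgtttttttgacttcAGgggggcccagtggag
Dusp1 intron 3 donor, chr17:26506960-26506999, minus strand: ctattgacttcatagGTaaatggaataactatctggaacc
Dusp1 intron 3 acceptor, chr17:26506636-26506685, minus strand: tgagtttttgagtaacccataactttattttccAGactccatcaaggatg
Dusp2 intron 2 donor, chr2:127336884-127336923, plus strand: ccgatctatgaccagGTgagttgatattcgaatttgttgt
Dusp2 intron 2 acceptor, chr2:127337214-127337263, plus strand: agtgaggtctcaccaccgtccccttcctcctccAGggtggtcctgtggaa
All 3 introns begin with GT and end with AG. Intron 2 of Dusp1 is 369 bases long with a GC content of 50.9%, intron 3 of Dusp1 is 334 bases with 46.4%, and intron 2 of Dusp2 is 350 bases with 47.4%. Intron 2 lies at the same place in both genes, just before an exon 3 of 220 bases.

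**Figure D2:**
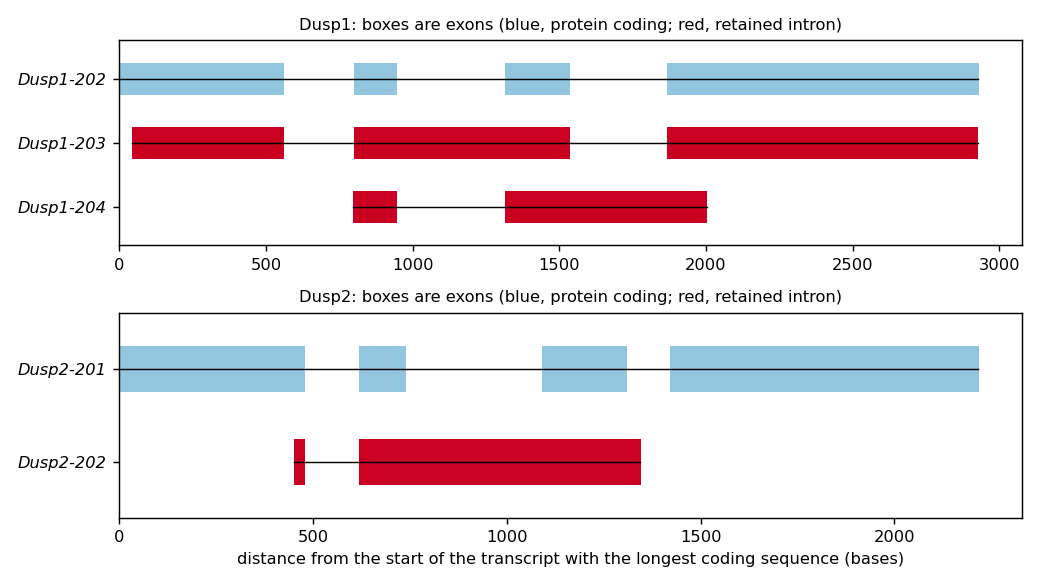
Exons of the Dusp1 transcripts 202, 203 and 204 and of the Dusp2 transcripts 201 and 202, drawn to scale by distance in bases from the start of the transcript with the longest coding sequence. Boxes are exons (blue, protein coding, and red, retained intron). Dusp1-203 joins exons 2 and 3 across intron 2. Dusp1-204 and Dusp2-202 have 2 boxes each. The last box runs from exon 3 through intron 3 in Dusp1-204, and from exon 2 through intron 2 in Dusp2-202.

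Dusp16, the third member with a retained-intron transcript, had only 3.59% and 3.40% of its TPM on it (mean 3.49% ± 0.129, SD, n = 2), the percentile 2.25 of the same genes. The annotated type does not count all intronic sequence of this gene. In the first quantification the highest Dusp16 transcript was Dusp16-204, of 3305 bases and annotated as protein coding, at 3.91 and 12.39 TPM or 50.1% and 53.4% of the gene. Its last exon runs 2316 bases into intron 4, which is 13816 bases long, so the exon 4 donor is read through.
Dusp16 intron 4 donor, chr6:134739787-134739826, minus strand: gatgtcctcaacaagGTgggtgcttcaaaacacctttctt
The full-length coding transcripts Dusp16-201 and Dusp16-202 were at 2.03 and 6.65 TPM and at 1.47 and 2.57 TPM. The other 7 members have no transcript annotated as retained intron, so the same share cannot be formed for them.

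**Figure D3:**
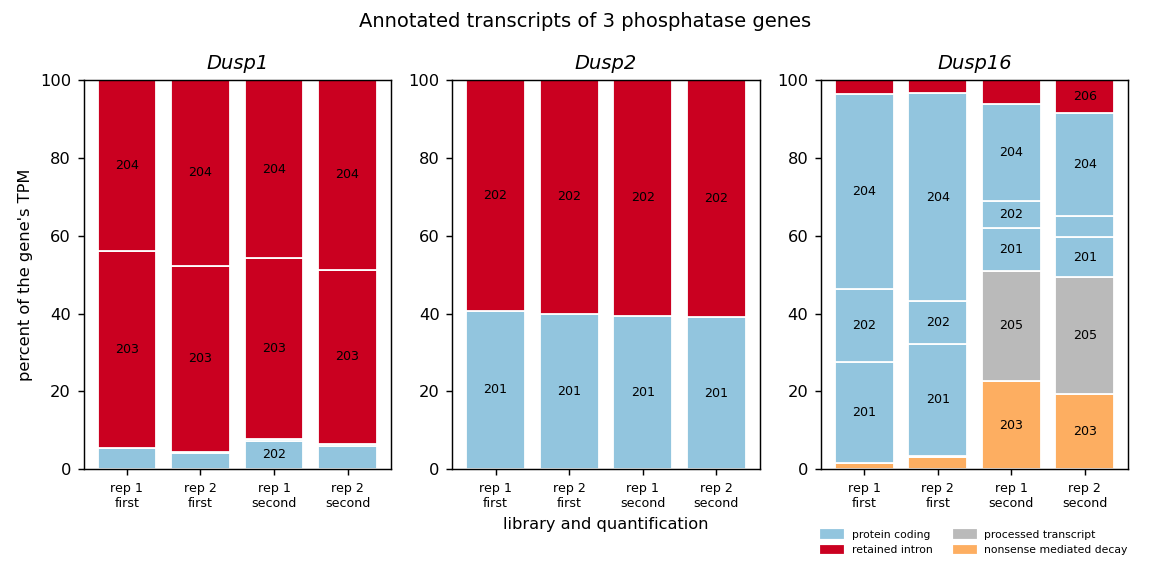
Percent of each gene's TPM on its annotated transcripts in Dusp1, Dusp2 and Dusp16, for both libraries in the first and the second quantification, with colour giving the annotated type and numbers the transcript. Retained-intron transcripts hold over 92% of Dusp1 and about 60% of Dusp2 in all 4 columns, whereas Dusp16 is split differently by the quantifications.

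Some members of a class shared a gene structure that was not used to choose them. In the transcript with the longest coding sequence (among equals, the one of higher TPM), Dusp1, Dusp2, Dusp4 and Dusp5 each have 4 exons, and exon 3 is 220 bases in all 4. Exon 2 is 146 bases in Dusp1 and Dusp4, 122 bases in Dusp2 and 149 bases in Dusp5. Dusp6 and Dusp7 have 3 exons each, with exon 2 of 438 and 435 bases. Dusp8 and Dusp16 have 7 exons each, and exons 3, 5 and 6 are 139, 160 and 124 bases in both. Dusp10, placed in the same class, has 4 exons of 189, 852, 372 and 1379 bases and shares none of these lengths. The coding regions have 367 codons in Dusp1, 318 in Dusp2, 398 in Dusp4, 384 in Dusp5, 381 in Dusp6, 422 in Dusp7, 483 in Dusp10, 663 in Dusp8, 660 in Dusp16 and 198 in Dusp14.

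Dusp1 and Dusp2 have the least intron sequence of the 10 genes. The introns of the same transcripts add up to 940 bases in Dusp1 and 601 in Dusp2. They add up to 1462 bases in Dusp6, 3880 in Dusp7, 9858 in Dusp4, 10850 in Dusp5, 10979 in Dusp8, 19081 in Dusp14, 38464 in Dusp10 and 72049 in Dusp16. The members with the least total intron sequence were thus the highest by gene TPM, but Dusp6, next in total intron sequence, was the lowest. With 10 genes taken by name, this order is a description of the family and was not tested.

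The libraries differed in scale, and the members lay on both sides of the typical gene in the ratio between them. All 10 members had a higher TPM in replicate 2 than in replicate 1, and the typical gene did too: expressed protein-coding genes had a median TPM ratio of 1.73, replicate 2 over replicate 1. All protein-coding genes together took 14.0% of all TPM in replicate 1 and 24.99% in replicate 2. After TMM scaling, which aligns the bulk of genes between libraries, the log2 ratio, replicate 2 over replicate 1, was 0.93 for Dusp14, 0.78 for Dusp6, 0.58 for Dusp16, 0.45 for Dusp10, 0.43 for Dusp2, 0.34 for Dusp1 and 0.19 for Dusp7. It was -0.14 for Dusp8, -0.23 for Dusp5 and -0.69 for Dusp4. The median of expressed protein-coding genes was -0.12, so 7 of 10 members lay above it. In the second quantification 6 members lay above the median there. A median has as many genes above it as below, and these counts were not tested. Relative to that median Dusp1 was at 0.45 and Dusp4 at -0.57, on opposite sides of the typical gene. The 3 lowest genes have few counts, and the ratio of Dusp6 rests on 6 and 23 counts.

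None of the 10 members passed a 2-fold difference between the libraries (0 of 10), against 4.92% of 10981 protein-coding genes that were 2-fold higher and 5.57% that were 2-fold lower in replicate 2. With 1 library on each side this is a description without a test. With DESeq2 size factors 1 member passed, Dusp14 at a log2 ratio of 1.01, where 5.95% of protein-coding genes were 2-fold higher and 4.4% lower. With library size alone 5 members passed as higher, namely Dusp2, Dusp16, Dusp14, Dusp10 and Dusp6, where 22% of protein-coding genes were 2-fold higher and 0.765% lower. With no count filter 0 members passed, against 8.66% higher and 12.1% lower, and in the second quantification 0 passed, against 2.97% higher and 5.94% lower. Library size alone put the median of expressed protein-coding genes at 0.49, and 7 members again lay above that median. The replicates were made from 250 ng and 500 ng of RNA, per the labels, and what part this had in the ratios was not tested.

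**Figure D4:**
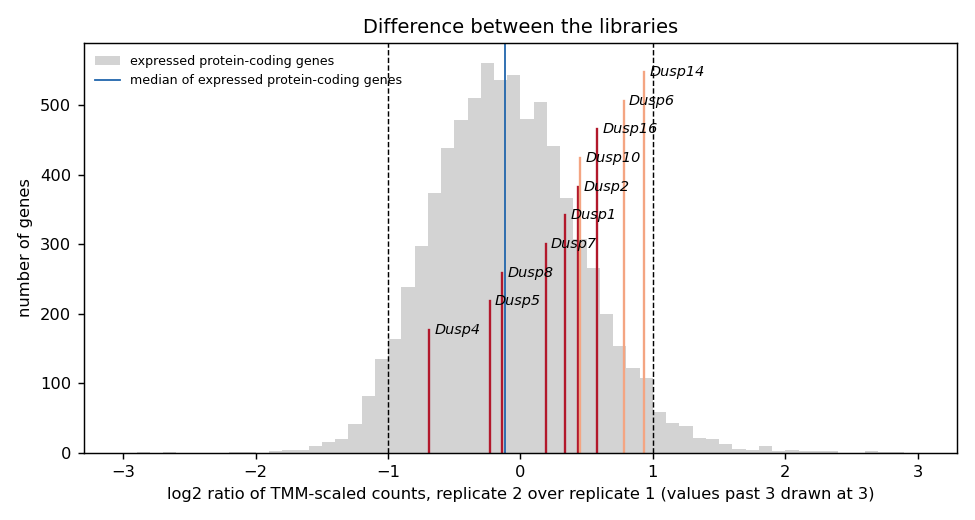
Log2 ratio of TMM-scaled counts, replicate 2 over replicate 1, for expressed protein-coding genes (grey histogram, number of genes), with their median at -0.12 as a blue line and the 2-fold limits dashed. The phosphatase genes are vertical lines, dark for those at 1 TPM or more in both libraries and light for the others; all 10 lie inside the limits, from Dusp4 at -0.69 to Dusp14 at 0.93.

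The second quantification gave the same leading genes and moved some lower ones. Dusp1 was at 116 and 301 TPM, Dusp2 at 56.6 and 146 TPM, Dusp5 at 15.8 and 24.1 TPM and Dusp4 at 8.76 and 10.7 TPM. The mean of Dusp7 was 5.59 times that of the first quantification. The gap came mainly from Dusp7-202, a processed transcript of 270 bases that was at 0 in both libraries in the first quantification and at 12.1 and 36.7 TPM in the second. The long coding transcript Dusp7-201 was at 2.66 and 5.79 TPM in the first and at 2.61 and 5.74 TPM in the second. Dusp16 was at 15.8 and 49.9 TPM, with the short transcripts Dusp16-205, at 4.42 and 14.9 TPM against 0 in the first quantification, and Dusp16-203, at 3.59 and 9.63 TPM against 0.12 and 0.76 TPM. Dusp16-204 was nearly the same as in the first quantification, at 3.94 and 13.3 TPM, but stood below Dusp16-205 in both libraries.

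Transcript assignments of the low genes were uncertain. Of 34 annotated transcripts of the 10 genes, 18 were above 0 in both libraries in the first quantification and 29 in the second. Dusp14-205 was at 0 TPM in replicate 1 and 1.49 TPM in replicate 2, and the authors' posterior interval for it in replicate 2, whose level is not stated, ran from 4.06e-05 to 1.48 TPM. Dusp14-202 had an upper bound of 1.48 TPM in the same library, so the split between these transcripts was not resolved. For Dusp1 the bounds were narrow by comparison, at 145 to 152 TPM for Dusp1-203 and 142 to 153 TPM for Dusp1-204 in replicate 2. They lie around posterior means that are slightly under the TPM values. Those TPM values were above the upper bounds, at 154.16 against 151.55 TPM for Dusp1-203 and 153.58 against 153.38 TPM for Dusp1-204.

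Promoter sequences were available for 9 of the 10 members from RefSeq (GRCm38.p6), as 250 bases before to 50 bases after the gene's start, and Dusp4 was not matched. They were searched on both strands for the cyclic AMP response element TGACGTCA, its half-site TGACG, the AP-1 motif TGANTCA and the NF-kB consensus. The full response element was found in Dusp1, once, and in Dusp8, at 2 places, against 588 of 32851 promoters (1.79%). The promoters of Dusp1, Dusp8 and, for comparison, the second highest gene Dusp2 are printed with the element and its half-sites in capitals.
Dusp1, chr17:26508423-26508722, minus strand: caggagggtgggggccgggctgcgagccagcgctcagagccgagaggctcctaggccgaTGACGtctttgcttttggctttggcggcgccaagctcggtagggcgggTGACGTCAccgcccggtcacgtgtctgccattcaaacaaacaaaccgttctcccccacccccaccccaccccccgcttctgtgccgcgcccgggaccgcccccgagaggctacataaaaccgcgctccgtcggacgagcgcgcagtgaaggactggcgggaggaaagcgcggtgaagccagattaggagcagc
Dusp8, chr7:142095235-142095534, minus strand: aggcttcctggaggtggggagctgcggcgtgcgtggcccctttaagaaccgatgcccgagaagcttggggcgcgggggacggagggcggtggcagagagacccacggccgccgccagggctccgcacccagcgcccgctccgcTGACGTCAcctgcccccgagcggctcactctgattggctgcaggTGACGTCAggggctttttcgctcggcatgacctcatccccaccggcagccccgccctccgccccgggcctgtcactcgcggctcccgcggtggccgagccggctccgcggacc
Dusp2, chr2:127335909-127336208, plus strand: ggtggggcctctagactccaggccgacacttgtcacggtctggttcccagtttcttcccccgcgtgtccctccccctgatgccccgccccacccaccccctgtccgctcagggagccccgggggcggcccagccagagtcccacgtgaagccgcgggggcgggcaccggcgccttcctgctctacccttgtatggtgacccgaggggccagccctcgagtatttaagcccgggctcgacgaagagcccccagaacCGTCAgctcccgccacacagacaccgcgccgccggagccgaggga
In Dusp1 the element lies 143 bases before the start, and a further half-site lies 191 bases before it. In Dusp8 the elements lie 107 and 63 bases before the start. Each full element also holds the half-site on both strands. Dusp2 has only a half-site, 5 bases after the start, and Dusp5 and Dusp16 have 1 half-site each. The half-site was in 20.8% of all promoters. The AP-1 motif (7.81% of all promoters) and the NF-kB consensus (4.51%) were not found in these windows of the 9 members. The element was thus found in the highest member and in one near the threshold. The GC content of the 9 windows ranged from 57.3% in Dusp6 to 78.7% in Dusp7, with 67% in Dusp1 and 70.7% in Dusp2, against a median of 52.7% over all promoters.

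The kinases that the phosphatases act on and the rest of the pathway were measured in the same libraries. Of 13 MAP kinase genes 8 reached 1 TPM in both libraries, with list medians of 2.80 and 6.80 TPM. The highest were Mapk6, encoding an atypical MAP kinase, at 41.12 and 74.3 TPM and Mapk14, encoding p38 alpha, at 36.45 and 70.9 TPM, while Mapk4 was listed at 0 in both. Chosen after their values were seen, because they encode other substrates, Mapk3 was at 7.58 and 16.51 TPM and the JNK gene Mapk8 was at 2.80 and 7.03 TPM. By gene TPM, most of it on retained-intron transcripts, Dusp1 was thus above each of these kinase genes in both libraries. Its coding transcript Dusp1-202 alone, at 6.87 and 13.52 TPM, was below the gene values of Mapk6, Mapk14 and Mapk3 and above those of Mapk8.

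The upstream kinases were mostly present. Of the MAP kinase kinase genes 6 of 7 reached 1 TPM in both libraries, led by Map2k3, which encodes an activator of p38, at 57.32 and 59.25 TPM and Map2k1, which encodes an activator of ERK, at 34.56 and 45.72 TPM. Of the kinases above them 12 of 13 did so, led by Map3k5 at 26.25 and 50.86 TPM and Map3k8, the kinase that carries Toll-like receptor signals to ERK in macrophages, at 8.15 and 43.82 TPM. Map3k8 was the only gene of its list past 2-fold between the libraries, at a TMM log2 ratio of 1.56. All 9 genes for kinases activated by MAP kinases reached the threshold, led by Mapkapk2 at 64.84 and 131.35 TPM and Mapkapk3 at 52.04 and 94.03 TPM, both encoding kinases downstream of p38. In the second quantification Mapkapk2 was at 170 and 415 TPM, above Dusp1 at 116 and 301 TPM. Among the kinases activated by MAP kinases 1 gene was past 2-fold lower in replicate 2, Rps6ka1 at -1.20, chosen after its value was seen.

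The remaining lists held the other brakes of the pathway and its fast targets. Dusp9, the classical MAP kinase phosphatase gene outside the 10, was listed at 0 in both libraries. Of 15 other atypical dual-specificity phosphatase genes 5 reached 1 TPM in both libraries, with list medians of 0.28 and 0.55 TPM. They were led by Dusp11, whose enzyme acts on RNA, at 30.33 and 90.72 TPM and Styx, which encodes a catalytically inactive relative, at 4.21 and 9.17 TPM, while Dusp21 and Dusp26 were listed at 0. In that list 2 genes were past 2-fold higher in replicate 2, Dusp23 at a log2 ratio of 1.14 and Dusp28 at 1.04, on summed counts of 30 and 23. Of 7 Sprouty and Spred genes, inhibitors of the ERK branch, 3 reached the threshold, led by Spred1 at 29.68 and 73.11 TPM and Spred2 at 2.38 and 3.40 TPM. Of 16 MAP kinase responsive early genes 13 did so, with list medians of 6.19 and 7.55 TPM, led by Atf3, a transcription factor gene, at 32.89 and 88.53 TPM and Zfp36, whose protein destabilizes cytokine mRNA, at 25.87 and 70.07 TPM. By gene TPM, Dusp1 was above the highest gene of each of these lists in both libraries. Its coding transcript Dusp1-202 alone, at 6.87 and 13.52 TPM, was below the gene values of Dusp11, Spred1 and Atf3.

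**Figure D5:**
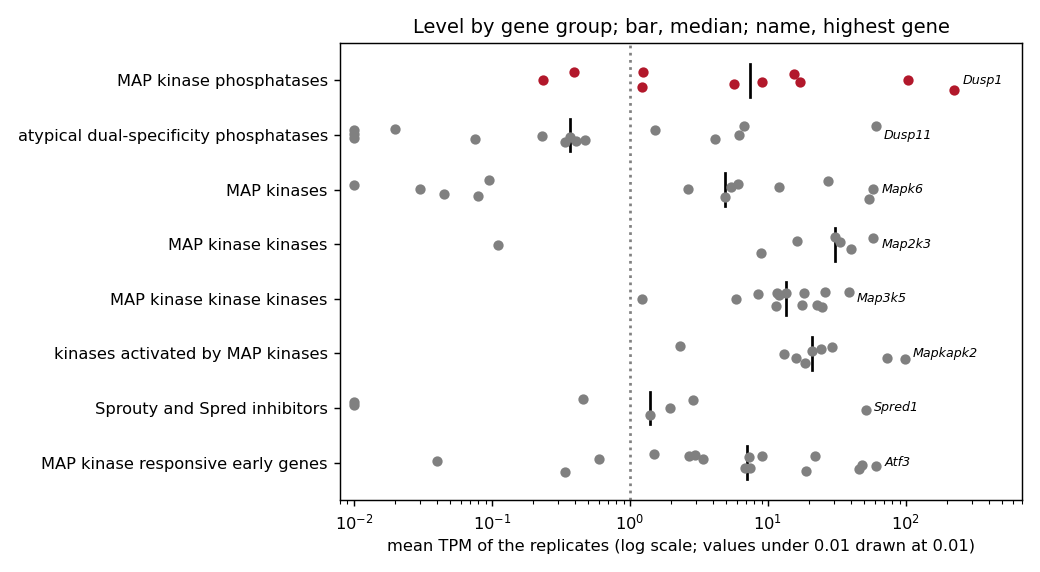
Mean TPM of the 2 replicates on a log axis for the 10 phosphatase genes (red) and for the genes of 7 pathway lists (grey), 1 point per gene, with the median of each group as a bar, the highest gene named, and values under 0.01 drawn at 0.01; the dotted line marks 1 TPM. Values are gene TPM from the first quantification, where Dusp1, at 224 TPM, mostly on retained-intron transcripts, lies to the right of every other point. In the second quantification, not drawn, Mapkapk2 was above Dusp1 in both libraries. The low end of the phosphatase genes overlaps the low genes of the other lists.

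The protein-coding genes nearest to Dusp1 in level, by the Euclidean distance of log2(TPM + 1) over the 2 libraries, were Ddhd1, at 140.53 and 329.69 TPM (distance 0.16), Pabpc1, at 129.19 and 279.25 TPM (distance 0.21), and Cers6, at 144.65 and 304.86 TPM (distance 0.21). With 2 libraries of the same condition, this likeness is one of level alone.

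As a check of the labelled cell type, all 8 macrophage marker genes reached 1 TPM in both libraries, among them Adgre1 at 80.22 and 171.29 TPM and Csf1r at 45.62 and 40.72 TPM, and their sum was 307.39 and 489.3 TPM. Of these 8 genes 2 were past 2-fold lower in replicate 2, Csf1r at a TMM log2 ratio of -1.16 and Itgam at -1.24. No marker of B cells, T and NK cells, neutrophils, stromal and endothelial cells, or mast and erythroid cells did so (0 of 25), and the largest sum of any of these lists was 1.26 and 1.57 TPM, for the stromal and endothelial markers. In the second quantification 3 of 25 did so: Cd3d, a T cell marker, at 13.0 and 28.8 TPM, Pecam1, an endothelial marker, at 3.36 and 8.67 TPM, and Ms4a1, a B cell marker, at 1.03 and 1.87 TPM. The T and NK cell list summed to 13.7 and 29.4 TPM there, and the stromal and endothelial list to 5.15 and 11.8 TPM. Their part in the results was not tested. The expected counts on annotated genes summed to 21453617 and 29638814 for replicates 1 and 2, and 3 counts, the limit that a count of 0 allows, corresponded to 0.140 and 0.101 CPM. The 10 phosphatase genes took 0.0435% and 0.0805% of the counts. Intervals cover counting error only.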

How the data were processed

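Members and lists were chosen with earlier results of these data known. For each library the authors deposited expected (estimated) counts and TPM per gene and transcript, made by aligning reads to mm10 transcripts of GENCODE M21, and a second transcript table of estimated counts and TPM derived from the reads and an index, per the deposited text. Column names are those of RSEM and kallisto, per the file headers; the sources used here give no aligner, no quantifier version and no strand setting. The authors also deposited posterior bounds of TPM and posterior standard deviations of counts, kept here as a score with no stated level.

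Identifiers were matched to GENCODE M21 for symbols, transcript types and mm10 positions. The 26345 rows that matched no gene held 0.409% of counts in replicate 1 and 0.277% in replicate 2 and were left out. A gene was called expressed at 1 TPM or more in both libraries. Expected counts were rounded and scaled by TMM (edgeR 4.0.16, R 4.3.3; factors 0.8096 and 1.235) over genes whose counts summed to at least 20, with 0.5 added for log2 ratios. With 1 group no p-value was computed. The genes named were all members, the 2 highest of each list with those at 0 where 3 or fewer, and the 3 nearest to the highest member. Alternatives were DESeq2 1.42.0 size factors, library size alone, no count filter, other thresholds, TPM over protein-coding genes, the second quantification and leaving out a replicate. The ratio step was tested on simulated data.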

Additional observations from a re-analysis of the deposited data

How the results depend on the processing

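With DESeq2 size factors 1 member passed 2-fold between the libraries and with library size alone 5 did, against 0 with TMM, with no count filter and with the second quantification. Library size alone also put 22% of protein-coding genes past 2-fold higher, and DESeq2 size factors 5.95%. The retained-intron share was 93.79% for Dusp1, 35.59% for Dusp2 and 0.3901% for Dusp16 as a share of expected counts, and 92.82%, 60.67% and 7.215% in the second quantification. Without either replicate it ranged from 94.54% to 95.59%, from 59.22% to 60.06% and from 3.402% to 3.585% in the same order of genes. Members at 1 TPM or more numbered 6 to 9 under the other thresholds, scales and replicates tried, against 7. Of 45 pairs of members, 42 to 44 kept their order under the alternatives. In the second quantification the mean of Dusp7 moved above those of Dusp4 and Dusp5, and the mean of Dusp16 above that of Dusp5. The second quantification moved the level of 4 members (Dusp7, Dusp8, Dusp14, Dusp16) by more than the SD and left 6 within it. The SD also holds the difference in scale between the libraries, so a level within it can still have moved. Among those 6, the mean of Dusp10 was 1.63 times that of the first quantification, against 0.929 times for Dusp1 and 0.985 times for Dusp2. TPM over protein-coding genes alone moved all 10, since it rescales every gene. The cause of the other changes was not tested. With 2 libraries no difference between them has a replicate check, and low counts limit what can be said of Dusp6, Dusp10 and Dusp14. No paired analysis was possible because there is 1 group.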

Other observations

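Some genes around the family crossed 1 TPM only in the second quantification, chosen here after their values were seen. Dusp23, an atypical dual-specificity phosphatase gene, was at 0.14 and 0.67 TPM in the first quantification and at 9.22 and 12.6 TPM in the second. Styxl1, which encodes an inactive relative of these phosphatases, was at 0.08 and 0.07 TPM against 2.78 and 5.66 TPM. Mapk12, which encodes p38 gamma, was at 0.08 and 0.11 TPM against 1.03 and 3.73 TPM. In all 3 the second quantification was higher in both libraries.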
